A study of Mus musculus with 6 samples.

Results

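The 86 genes described here encode the nuclear-encoded subunits of the mitochondrial respiratory chain and ATP synthase. They were chosen by symbol, as protein-coding genes outside the mitochondrial genome whose names start with Ndufa, Ndufb, Ndufc, Ndufs, Ndufv, Uqcr, Cox4i, Cox5, Cox6, Cox7, Cox8 or Atp5, plus Sdha, Sdhb, Sdhc and Sdhd, with assembly factors left out. The rule uses symbols and no measured value. Of 55400 genes in the table, 36 fell to complex I, 4 to complex II, 8 to complex III, 20 to complex IV and 18 to complex V. Ndufa4 and Ndufa4l2 were placed with complex IV, where the NDUFA4 protein resides. The 86 entries carry 85 symbols, since Atp5o is listed under a second identifier. The prefixes do not take every subunit of the chain, such as cytochrome c1 (Cyc1), and they take Atp5s, whose place in the enzyme is less clear.

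The respiratory chain passes electrons from NADH (complex I) and succinate (complex II) through ubiquinone, complex III and cytochrome c to oxygen at complex IV, and pumps protons across the inner mitochondrial membrane on the way. Complex V, the ATP synthase, lets the protons flow back and makes ATP. Except for complex II, each complex joins nuclear-encoded subunits, imported from the cytosol, to a few subunits made inside the mitochondrion from its own genome. Neural progenitors rely strongly on glycolysis, and neurons on oxidative phosphorylation.

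RNA was measured by poly(A) sequencing in 6 libraries of motor neuron progenitors made from C57BL/6 mouse embryonic stem cells, 3 labelled control and 3 labelled Setd5sh. All 6 carry the genotype label WT. The stem cells had been grown on mitomycin-treated embryonic fibroblasts, were aggregated into embryoid bodies, received 1 µM retinoic acid and 0.5 µM SAG, an activator of Sonic hedgehog signalling, from day 2, and were harvested on day 4. The treatment text gives doxycycline at 1 µg/mL for 36 h in both groups alike, and the sources used here do not describe the hairpin construct, the number of clones or what the control cells carried. Nothing states that replicates came from separate cultures, so the p-values measure the spread between these libraries, which may be technical. Because whole cultures were sequenced, fewer cells of a type and less RNA per cell cannot be told apart.

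Total counts lay between 19639303 and 32046466 per library, of which 212790 to 342318 fell on the 86 genes. Setd5, the gene named in the label, stood at 22.2, 18.8 and 16.7 FPKM (fragments scaled to exon length and library size) in control replicates 1 to 3 and at 14.4, 13.5 and 12.9 FPKM in the Setd5sh replicates (edgeR adjusted p = 0.995). All 10 motor neuron progenitor markers were above 1 FPKM, with a summed level of 396 to 476 FPKM in control and 463 to 563 FPKM in Setd5sh. The 10 young neuron markers summed to 50.2 to 52.4 FPKM in control and to 62.8 to 85.4 FPKM in Setd5sh, with 6 of the 10 at a mean of 1 FPKM or more. That separation rests on Tubb3, a neuronal tubulin, at 19.0, 17.3 and 26.1 FPKM in the control libraries and 53.5, 30.5 and 55.0 FPKM in the Setd5sh libraries. Without it the sums overlap, at 24.1 to 34.9 FPKM in control and 30.4 to 32.3 FPKM in Setd5sh. Ina, of the same list, also did not overlap, as for 5.21% of all genes tested. It stood at 3.79, 4.40 and 4.21 FPKM in control and 7.71, 5.80 and 9.12 FPKM in Setd5sh. The groups overlapped for the other markers of the list. Among these, Mnx1, a motor neuron factor, stood at 10.7, 22.8 and 11.3 FPKM in control against 7.16, 17.1 and 5.05 FPKM in Setd5sh. The 9 pluripotency markers summed to 20.5 to 89.3 FPKM in control and to 10.5 to 66.0 FPKM in Setd5sh. The highest sum of each group was in replicate 2. Most of each sum was Dppa5a, at a mean of 32.4 FPKM, and 4 of the 9 had a mean of 1 FPKM or more. Endoderm markers summed to 23.5 to 36.9 FPKM in control and 34.1 to 38.3 FPKM in Setd5sh. Foxa2 alone, at a mean of 30.7 FPKM, made up most of the endoderm sum in every library. A mean of 1 FPKM or more was reached by 3 of the 7 endoderm markers. Mesoderm and heart muscle markers summed to 18.2 to 27.1 FPKM in control and 13.9 to 21.9 FPKM in Setd5sh. Fibroblast markers summed to at most 11.6 FPKM, and endothelial and blood markers to at most 2.0 FPKM, with Ptprc at 0 in all 6 libraries. Whether any of these cell types had a part in the values below was not tested.

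Transcription factors known to bind promoters of respiratory chain genes include NRF1, the ETS factor GABP and YY1, so promoter windows of 300 bases (250 before and 50 after the gene's start; RefSeq, GRCm38.p6, the patch release of the mm10 build) were searched on both strands. A window was found for 69 of the 85 symbols. The NRF1 letters, GCGCA, any 1 base and then GCGC, occurred in 17 of the 69 (24.6%), against 1402 of 27025 genes in the whole RefSeq table (5.19%). The ETS letters CCGGAAG occurred in 16 (23.2%), against 9.93% of all genes, and the YY1 letters AAGATGGC in 10 (14.5%), against 3.19%. At least 1 of the 3 was present for 37 of the 69 (53.6%), against 16.39% of all genes. Each gene was counted once, with a match in any of its windows, and the comparison took all genes whether or not expressed here. None of the 3 patterns contains another, although the ETS and YY1 letters can share AAG, and a match is a description of letters, not a bound site. By complex, NRF1 letters were found for 7 of 32 genes with a window in complex I, 2 of 3 in complex II, 1 of 5 in complex III, 1 of 14 in complex IV and 6 of 15 in complex V.

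One NRF1 match is shown for each of the 5 complexes. The capitals are alike because the matches were chosen by these letters, and the flanks differ. Each sequence is 30 bases on the gene's own strand with the match in capitals, and where the match lies on the opposite strand the capitals show its reverse complement.
Ndufs6, complex I, chr13:73328479-73328508, minus strand, before the start: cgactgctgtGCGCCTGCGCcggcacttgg
Sdhd, complex II, chr9:50603909-50603938, minus strand, before the start: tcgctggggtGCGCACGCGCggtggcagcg
Uqcrc1, complex III, chr9:108936643-108936672, plus strand, after the start: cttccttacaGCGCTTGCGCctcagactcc
Cox6a1, complex IV, chr5:115349101-115349130, minus strand, before the start: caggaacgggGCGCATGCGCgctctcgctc
Atp5c1, complex V, chr2:10080430-10080459, minus strand, before the start: ctgagctcccGCGCACGCGCactgagtccc

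Sdhd carried an ETS match in the same window as its NRF1 match, and Ndufs6 a YY1 match, and 2 further examples show the ETS and YY1 letters in other genes.
Sdhd, ETS, chr9:50603877-50603906, minus strand, before the start: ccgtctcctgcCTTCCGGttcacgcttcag
Cox8a, ETS, chr19:7217603-7217632, minus strand, before the start: tttccgaaataCTTCCGGctcgggcgtccg
Ndufs6, YY1, chr13:73328433-73328462, minus strand, after the start: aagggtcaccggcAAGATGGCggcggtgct
Atp5f1, YY1, chr3:105959248-105959277, minus strand, before the start: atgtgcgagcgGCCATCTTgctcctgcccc

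No subunit gene passed the threshold between Setd5sh and control. Of the 81 genes with a mean of at least 1 FPKM, 0 had an edgeR adjusted p under 0.05, beside 0 of 12199 genes in all (0.0% called), and DESeq2 also called 0 (221 of all genes, 1.81%, at an unadjusted p under 0.05). At an unadjusted edgeR p under 0.05 there were 0 of the 81, beside 149 genes in all (1.22%). The FPKM values of the groups overlapped for all 81, where 636 of the 12199 genes (5.21%) had groups that did not overlap. The other 5 entries, Cox6a2, Cox7b2, Cox8b, Cox8c and the second Atp5o, were below that mean.

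The estimated differences lay mostly near 0. The median log2 fold change, Setd5sh minus control, was -0.00 over the 81 genes and -0.04 over all genes tested. Of the 81 genes, 39 were higher and 42 lower in Setd5sh, beside 5197 higher and 7002 lower of all 12199. The 95% interval lay within a 2-fold change in either direction for 76 of the 81 and within 1.5-fold for 41. By complex, the interval lay within 2-fold for 36 of 36 genes in complex I, 4 of 4 in complex II, 8 of 8 in complex III, 12 of 16 in complex IV and 16 of 17 in complex V. The 5 genes with wider intervals were Cox4i2, Cox6b2, Cox7a1 and Ndufa4l2, which are minor paralogs at low level, and Atp5k. A miss of the threshold does not show that the groups were equal: in simulated counts at this spread, edgeR recovered 95% of 4-fold but 37% of 2-fold changes among 12199 genes.

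**Figure D1:**
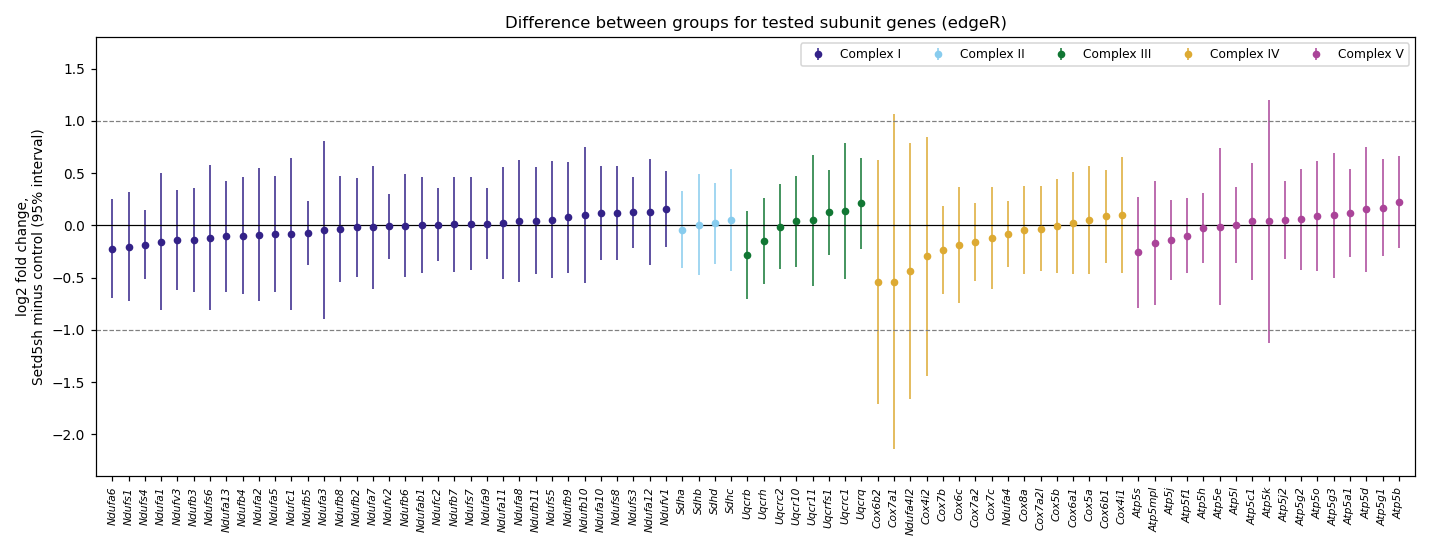
Log2 fold change, Setd5sh minus control, of the tested subunit genes except 1 that is not shown, each with its 95% interval from edgeR (vertical axis, log2), ordered within complexes I to V along the horizontal axis. Dashed lines mark a 2-fold change in either direction. All intervals shown include 0, and 5 of them, 4 in complex IV and 1 in complex V, reach beyond the dashed lines.

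As a share of all FPKM, the 86 genes took 1.73%, 2.15% and 2.17% in control replicates 1 to 3 and 2.16%, 2.16% and 1.86% in Setd5sh replicates 1 to 3. Control replicate 1 and Setd5sh replicate 3 were thus the low libraries of their groups, and the groups overlapped. The mean was 2.02% ± 0.245 in control and 2.06% ± 0.173 in Setd5sh (SD, n = 3 each; exact two-sided permutation test, p = 0.8; 3 against 3 cannot go below 0.1). Complex I took 0.596% in control and 0.597% in Setd5sh, complex II 0.0957% and 0.0970%, and complex III 0.215% and 0.217%. Complex IV took 0.525% and 0.516%, and complex V 0.584% and 0.628%. The exact permutation p for the 5 complexes lay between 0.6 and 1.0 before adjustment over them and was 1.0 for each after it. The levels below are per length of all annotated exons of a gene, so that a gene with long alternative exons has a lower FPKM than its main transcript would.

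Complex I takes electrons from NADH, and the median log2 fold change over its 36 nuclear-encoded genes was -0.01, with 16 higher and 20 lower in Setd5sh. Its 7 core subunits carry the flavin and the iron-sulfur clusters or line the quinone site. Ndufv1, which binds the flavin that accepts electrons from NADH, stood at 39.8, 53.0 and 54.4 FPKM in control replicates 1 to 3 and 59.2, 54.3 and 51.2 FPKM in Setd5sh replicates 1 to 3. Its log2 fold change of 0.16 (SE 0.16; edgeR adjusted p = 0.995) had the smallest p among complex I genes higher in Setd5sh, and control replicate 1 was the low library. Ndufv2, its iron-sulfur partner, spanned 58.0 to 71.4 FPKM over all libraries, a range of 0.25 on the log2 scale, the narrowest of the core.

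The core subunits described next also differed between group means by less than the SD of the controls. Ndufs7, which holds the last iron-sulfur cluster before the quinone, averaged 32.2 ± 7.19 FPKM in control and 32.6 ± 4.04 FPKM in Setd5sh (SD, n = 3 each). Ndufs8 averaged 44.4 ± 11.6 FPKM and 48.5 ± 1.45 FPKM, and Ndufs3 30.7 ± 4.20 FPKM and 33.6 ± 1.62 FPKM. For Ndufs7, Ndufs8 and Ndufs3 alike, control replicate 1 was the lowest of the 6 libraries. Ndufs1, the largest core subunit (chromosome 1, 63143596 to 63176833, minus strand of mm10), went the other way, with 18.3, 12.0 and 11.3 FPKM in control and 11.6, 11.3 and 13.7 FPKM in Setd5sh. Its low level rests on an annotated exonic length of 8086 bases, and its exons overlap those of Eef1b2 on the opposite strand, at 319 FPKM. Whether counting used strand is unknown, so reads of the overlapping stretch cannot be assigned.

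The 29 accessory genes of complex I surround the core and are needed for its assembly and stability. Ndufc2, in the membrane arm, was the highest gene of the complex, with 121, 135 and 147 FPKM in control and 151, 122 and 133 FPKM in Setd5sh. Ndufb2 was the lowest, with 7.07, 9.18 and 8.51 FPKM in control and 9.13, 9.35 and 6.01 FPKM in Setd5sh. The values of both genes interleaved between groups. Ndufs4, whose loss in mice gives a Leigh-like brain disease, had the smallest p among complex I genes lower in Setd5sh. It stood at 22.1, 24.7 and 23.2 FPKM in the control libraries and 19.7, 23.5 and 18.7 FPKM in the Setd5sh libraries (log2 fold change -0.19, SE 0.14; edgeR adjusted p = 0.995). Setd5sh replicate 2 lay among the controls and the other two Setd5sh libraries lay below them. Ndufa6, a LYR-motif subunit, averaged 32.1 ± 4.57 FPKM in control and 27.6 ± 6.69 FPKM in Setd5sh (log2 fold change -0.22, SE 0.20), with the lowest value, 20.6 FPKM, in Setd5sh replicate 3.

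Complex II, succinate dehydrogenase, belongs to both the chain and the tricarboxylic acid cycle, and all 4 of its subunits are nuclear-encoded. Sdha, the flavoprotein that oxidises succinate, stood at 79.7, 74.1 and 67.4 FPKM in control replicates 1 to 3 and 81.9, 70.3 and 64.0 FPKM in Setd5sh replicates 1 to 3. In each group replicate 1 was highest and replicate 3 lowest. Sdhb, the iron-sulfur subunit, stood at 38.1, 55.0 and 69.8 FPKM in the control libraries and 54.8, 56.0 and 53.0 FPKM in the Setd5sh libraries, so that all 3 Setd5sh values lay inside the control range. The membrane anchors Sdhc and Sdhd averaged 49.8 ± 14.5 and 118 ± 23.7 FPKM in control and 51.8 ± 3.60 and 120 ± 9.91 FPKM in Setd5sh. The log2 fold changes of the 4 genes lay between -0.04 and 0.05, with a median of 0.01.

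Complex III moves electrons from ubiquinol to cytochrome c, and 5 of its 8 genes were higher and 3 lower in Setd5sh (median log2 fold change 0.04). Uqcrfs1, the Rieske iron-sulfur protein, stood at 67.5, 93.3 and 104 FPKM in control replicates 1 to 3 and 87.7, 103 and 98.7 FPKM in Setd5sh replicates 1 to 3. Uqcrc1, a core protein of the matrix side, had the widest range of the complex, with 30.8, 61.0 and 75.5 FPKM in control against 60.3, 62.1 and 61.0 FPKM in Setd5sh. Its 3 Setd5sh values lay within 2 FPKM of each other, and the low control value was replicate 1. Uqcrc2, the second core protein, averaged 89.1 ± 12.6 FPKM in control and 88.9 ± 13.6 FPKM in Setd5sh. It was highest in both libraries numbered 3, at 104 FPKM each.

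Among the small subunits of complex III, Uqcrb had the smallest p of all 81 genes, which was 0.162 before adjustment in edgeR. Uqcrb binds near the ubiquinone site (ENSMUSG00000021520, chromosome 13, 66900617 to 66905378, minus strand of mm10). It stood at 93.7, 69.6 and 74.6 FPKM in the control libraries and 70.6, 68.6 and 58.5 FPKM in the Setd5sh libraries (log2 fold change -0.28, SE 0.18; adjusted p = 0.995). The high value was control replicate 1 and the low value Setd5sh replicate 3, while the other four lay between 68.6 and 74.6 FPKM. With length and GC trends removed the log2 fold change was 0.03. Uqcrq had the largest positive change of the complex, 0.21 (SE 0.19), with a single high library, Setd5sh replicate 1 at 63.4 FPKM, over 39.5 to 46.5 FPKM in the other five. Uqcrh, the hinge protein that docks cytochrome c1, averaged 109 ± 14.0 FPKM in control and 99.2 ± 20.3 FPKM in Setd5sh, and Uqcr11 had the highest level, 105 FPKM over all libraries.

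Complex IV hands electrons to oxygen. Its catalytic subunits are mitochondrially encoded, and the nuclear-encoded ones tested here regulate and stabilise it. Of 16 tested genes, 4 were higher and 12 lower in Setd5sh, with a median log2 fold change of -0.10, where 5197 of all 12199 genes were higher and 7002 lower. Without the 4 minor paralogs named above the median was -0.04, as it was over all genes tested, with 4 higher and 8 lower. Cox4i1, through which ATP regulates the enzyme, stood at 129, 226 and 219 FPKM in control replicates 1 to 3 and 218, 238 and 158 FPKM in Setd5sh replicates 1 to 3. Control replicate 1 and Setd5sh replicate 3 were the low libraries, and the other four lay within 20 FPKM of each other. Cox5a averaged 60.7 ± 15.7 FPKM in control and 62.8 ± 12.8 FPKM in Setd5sh, and Cox5b, which binds zinc, 95.5 ± 21.2 FPKM and 95.4 ± 13.5 FPKM. The highest gene, Cox8a, stood at 184, 260 and 301 FPKM in the control libraries and 244, 247 and 231 FPKM in the Setd5sh libraries. Cox7b averaged 77.3 ± 13.2 FPKM in control and 66.5 ± 6.61 FPKM in Setd5sh (log2 fold change -0.23, SE 0.18; edgeR adjusted p = 0.995), and like Uqcrb it was highest in control replicate 1 and lowest in Setd5sh replicate 3.

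Complex V consists of the catalytic F1 head and the proton-conducting Fo part. Atp5b and Atp5a1, both of the F1 head, had the highest mean levels of the 86 entries. Atp5b, the catalytic beta subunit (ENSMUSG00000025393, chromosome 10, 128083273 to 128090391, plus strand of mm10), stood at 281, 385 and 442 FPKM in control replicates 1 to 3 and 460, 408.5 and 431 FPKM in Setd5sh replicates 1 to 3. Its log2 fold change of 0.23 (SE 0.19; edgeR adjusted p = 0.995) was the largest positive one of the 81, and it was 0.09 without control replicate 1. Atp5a1, the alpha subunit, stood at 281, 375 and 442 FPKM in the control libraries and 392, 386 and 416 FPKM in the Setd5sh libraries. Alpha and beta form the ring of the head together, and their mean levels over all libraries, 382 and 401 FPKM, were close. Atp5c1, the rotating gamma shaft, stood at 118, 166 and 224 FPKM in control replicates 1 to 3 and 147, 167 and 209 FPKM in Setd5sh replicates 1 to 3.

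The remaining complex V genes lay lower, and Atp5s was the lowest at 4.28 FPKM over all libraries. It stood at 5.03, 4.80 and 4.10 FPKM in the control libraries and 3.17, 4.56 and 4.02 FPKM in the Setd5sh libraries (log2 fold change -0.26, SE 0.23; edgeR adjusted p = 0.995). Atp5o, the stalk subunit that confers oligomycin sensitivity, averaged 102 ± 32.8 FPKM in control and 109 ± 10.2 FPKM in Setd5sh. Its second identifier had a count of 0 in all 6 libraries, where 3 reads, the limit a count of 0 allows, would correspond to 0.177 to 0.288 FPKM. Both entries overlap on the same strand, and such limits cover counting error only. Atp5k, a small membrane subunit linked to dimers of the enzyme, was the most variable gene of the complex. It stood at 61.6, 66.6 and 32.3 FPKM in control replicates 1 to 3 and 78.0, 68.7 and 18.6 FPKM in Setd5sh replicates 1 to 3, so that both libraries numbered 3 were low. Atp5j, the coupling factor, averaged 31.4 ± 2.32 FPKM in control and 28.8 ± 4.59 FPKM in Setd5sh.

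**Figure D2:**
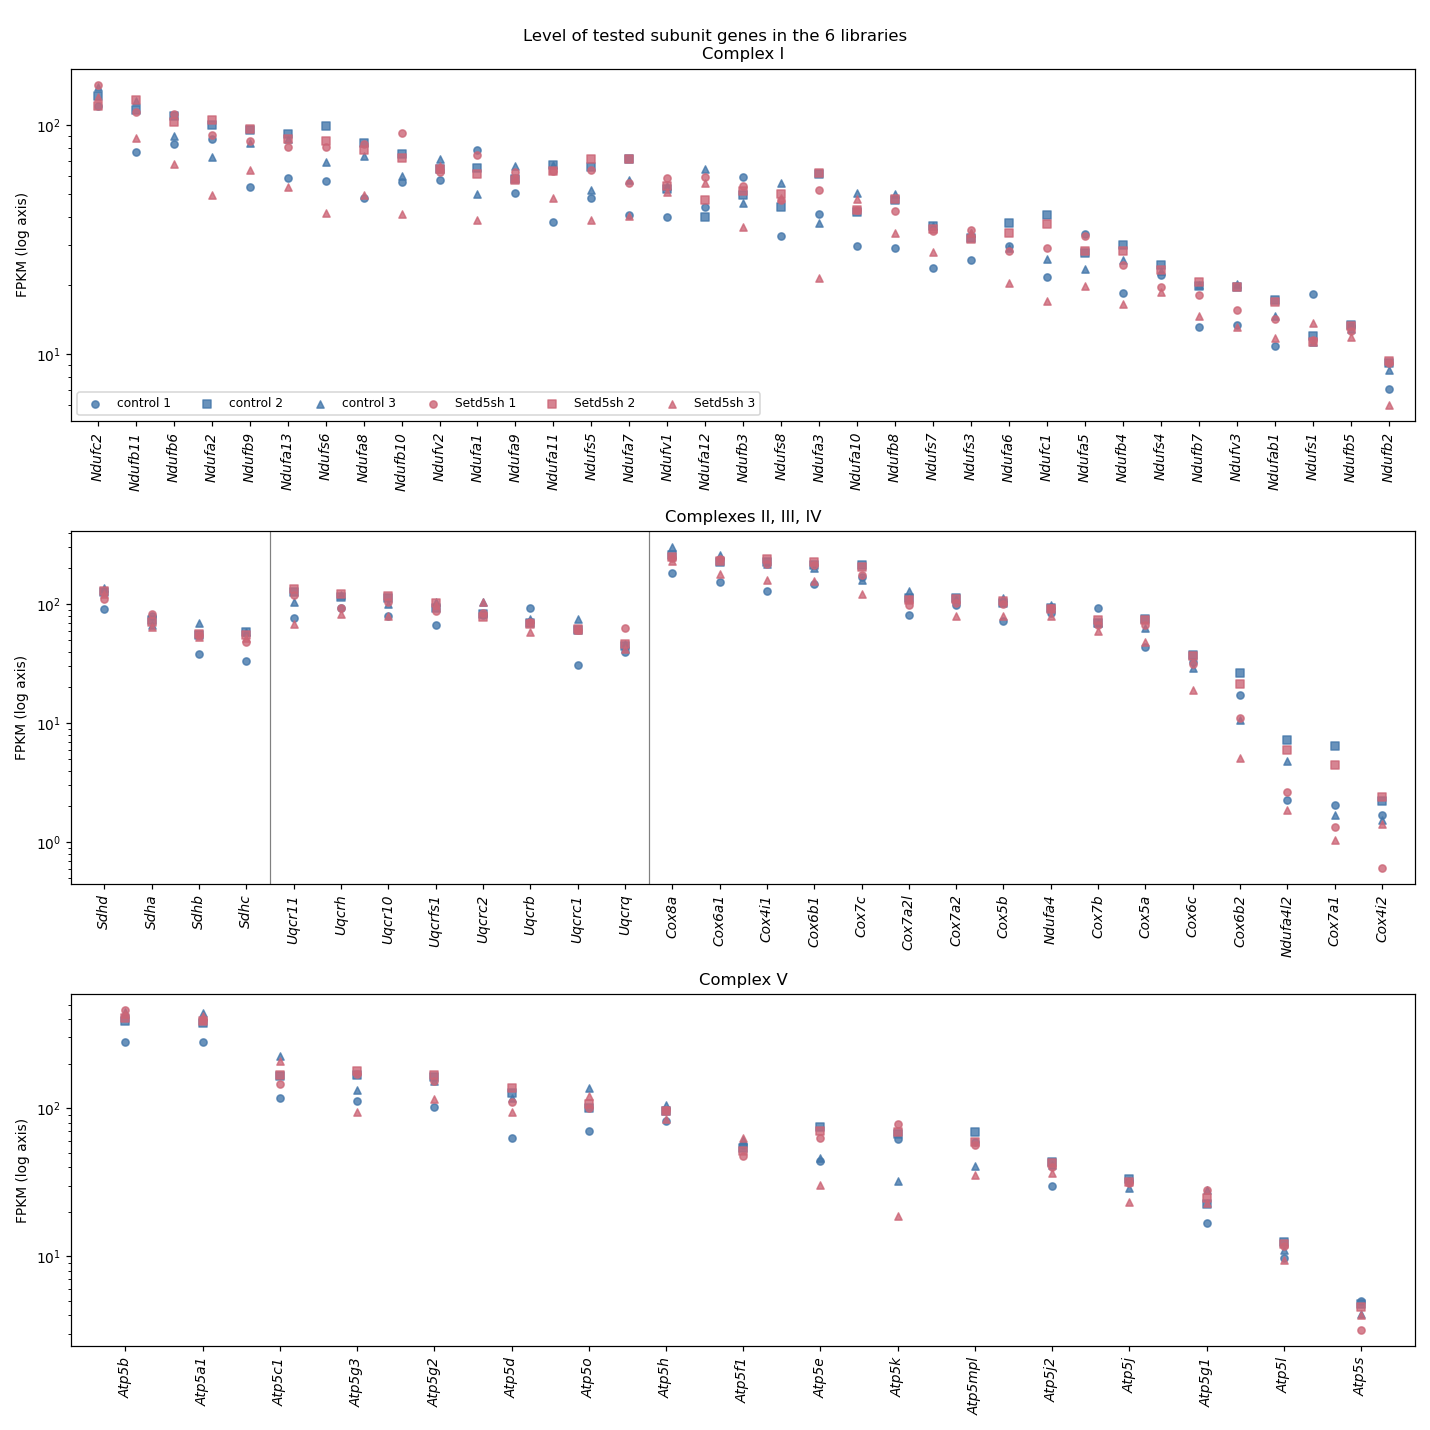
FPKM (log axis) of the tested subunit genes, except 1 that is not shown, in the 6 libraries, 1 symbol per library, blue for control and red for Setd5sh, with circles, squares and triangles for replicates 1, 2 and 3. Genes are ordered by mean level within each complex. Atp5b and Atp5a1 lie at the top, and blue and red symbols overlap for every gene shown.

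The variation that the subunits shared lay between libraries of the same group. For each gene the deviation from its own mean over the 6 libraries was taken on the log2 scale of TMM-scaled CPM. The median deviation of the 81 genes was -0.24 in control replicate 1 and -0.26 in Setd5sh replicate 3. In the other four libraries it lay between 0.10 and 0.12. The lowest library was control replicate 1 for 35 genes and Setd5sh replicate 3 for 39, together 74 of 81 (91.4%), where the same pair of libraries held the lowest value of 48.0% of all genes tested. Within same-numbered pairs, the median difference, Setd5sh minus control, was 0.37 in pair 1 (62 genes higher, 19 lower), 0.02 in pair 2 (46 higher, 35 lower) and -0.36 in pair 3 (2 higher, 79 lower). Pairs 1 and 3 thus lay in opposite directions, and over all genes tested the 3 medians were -0.02, -0.00 and -0.01.

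The complexes shared the low value in control replicate 1 but not that in Setd5sh replicate 3. In control replicate 1 the median deviation was -0.23 for complex I, -0.37 for complex II, -0.21 for complex III, -0.21 for complex IV and -0.25 for complex V. In Setd5sh replicate 3 it was -0.29, 0.00, -0.23, -0.29 and -0.14 in the same order. Within complex I, the 7 core genes stood at 0.04 and the 29 accessory genes at -0.45 in that library. Within complex V, the 5 F1 genes stood at 0.11 and the other 12 at -0.18. Whether the complexes differ from each other was not tested, since the genes of a complex are not replicates.

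**Figure D3:**
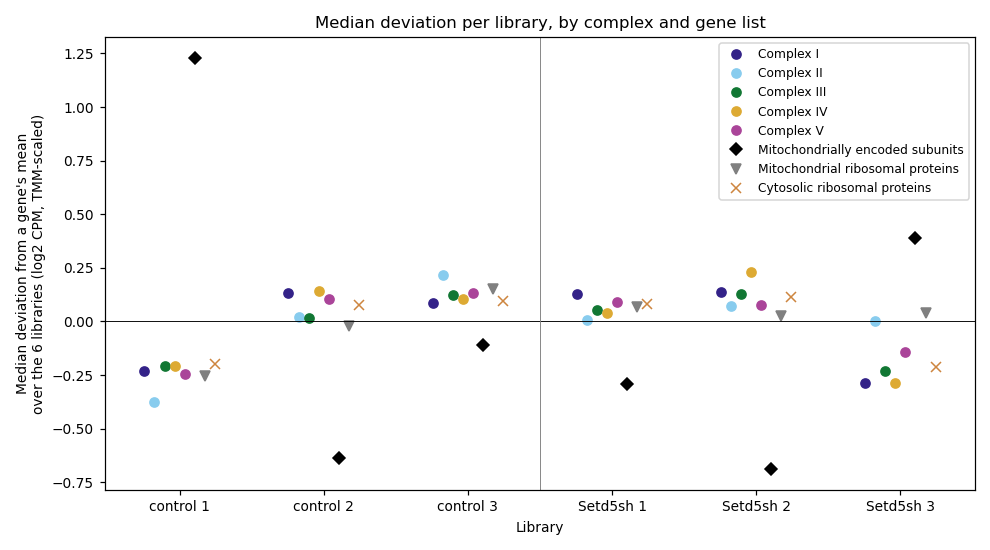
Median deviation of the tested genes from their own mean over the 6 libraries (vertical axis, log2 of TMM-scaled CPM) for complexes I to V, the 13 mitochondrially encoded subunits, and mitochondrial and cytosolic ribosomal proteins, by library on the horizontal axis. All 5 complexes lie below 0 in control replicate 1, 4 of them do in Setd5sh replicate 3, and the black diamonds of the mitochondrially encoded subunits are highest in these 2 libraries.

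Among the subunit genes, deviations were ordered by exonic length in Setd5sh replicate 3 and by GC content in control replicate 1. The reverse did not hold for them. In Setd5sh replicate 3 the 27 shortest of the tested subunit genes (419 to 1214 bases) had a median deviation of -0.45, the middle 27 had -0.20 and the 27 longest (2147 to 8086 bases) had -0.04. Among all genes tested, the 4068 shortest (45 to 2891 bases) stood at -0.06 and the 4064 longest (5529 to 41620 bases) at -0.01. The shortest and middle subunit genes, up to 2101 bases, all lie within the range of the 4068. These values therefore do not compare subunits with other genes of like length. In control replicate 1 the 27 subunit genes poorest in GC had a median deviation of -0.02 and the 27 richest had -0.35. By length, the shortest, middle and longest subunit genes stood at -0.11, -0.30 and -0.26 in control replicate 1. From poorest to richest in GC they stood at -0.26, -0.16 and -0.28 in Setd5sh replicate 3. In control replicate 1 the 4064 poorest in GC of all genes tested stood at 0.52 and the 4063 richest at -0.29. With length and GC groups of other ranges, the split seen among the subunits did not hold over all genes tested. From shortest to longest they stood at -0.11, -0.08 and 0.20 in control replicate 1. From poorest to richest in GC they stood at 0.03, 0.00 and -0.08 in Setd5sh replicate 3. After each library's smooth trend on length and GC over all genes was removed, the medians of the 81 genes were -0.12 in control replicate 1 and -0.18 in Setd5sh replicate 3. The core genes of complex I have a median exonic length of 2178 bases and the accessory genes 1251 bases, and after the removal they stood at 0.04 and -0.33 in Setd5sh replicate 3. How much of the pattern length and GC account for was not tested further.

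**Figure D4:**
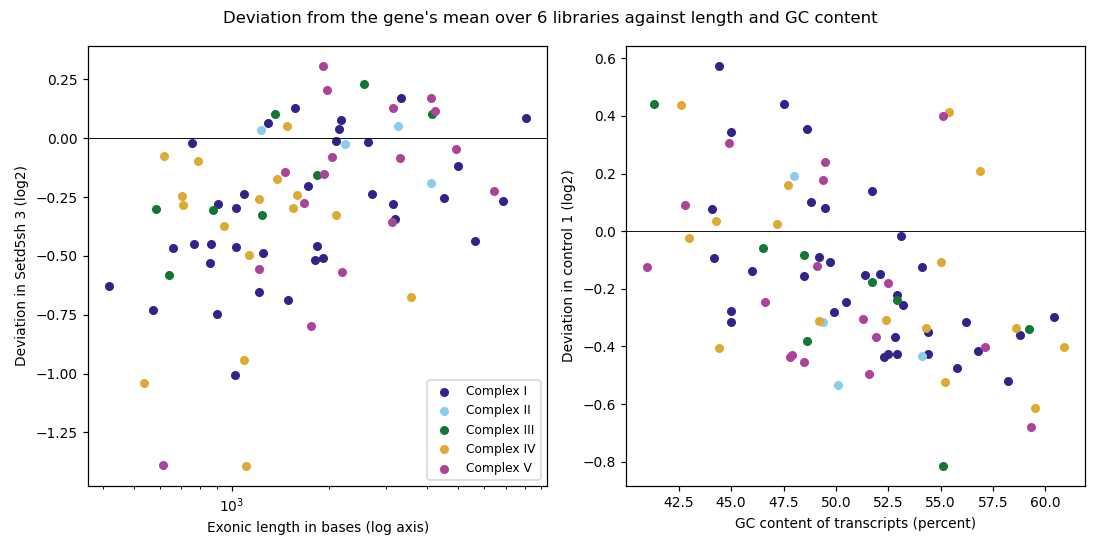
Each point is a tested subunit gene, coloured by complex, with the same gene left out. The left panel plots its deviation in Setd5sh replicate 3 (log2) against exonic length in bases on a log axis, and the right panel its deviation in control replicate 1 (log2) against the GC content of its transcripts in percent. The lowest points on the left are short genes, with medians of -0.45, -0.20 and -0.04 for the 27 shortest, middle and longest genes, and points on the right lie lower at high GC.

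The 13 subunits encoded in the mitochondrial genome went the opposite way across libraries. They include core subunits of complexes I, III and IV and part of the Fo portion of complex V. Their median deviation was 1.23, -0.64 and -0.11 in control replicates 1 to 3 and -0.29, -0.69 and 0.39 in the Setd5sh replicates. They were thus highest in the libraries where the nuclear-encoded subunits were lowest. The ratio of their summed FPKM to that of the 86 nuclear genes was 3.32, 0.826 and 1.05 in control and 0.974, 0.790 and 1.95 in Setd5sh. All 13 had a negative log2 fold change (median -0.53) and 0 passed the edgeR threshold. Within pairs, their median difference was -1.52 in pair 1, -0.00 in pair 2 and 0.64 in pair 3, so the sign was not the same in all pairs. These transcripts are AT-rich, with a median GC content of 37.1%, and after the trend on length and GC was removed their median deviation in control replicate 1 was 0.19 and in Setd5sh replicate 3 it was 0.35.

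Several complex IV subunits exist as paralogs with tissue-typical forms, such as the heart and muscle forms Cox6a2, Cox7a1 and Cox8b, the lung form Cox4i2 and the testis form Cox6b2. The ubiquitous form held the larger share in every library, from at least 89.0% of the family's summed FPKM for Cox6b1 and 92.8% for Ndufa4 to at least 99.9% for Cox6a1 and Cox8a. Cox6a2 drew 11 reads over all 6 libraries against 21894 for Cox6a1, and Cox8b and Cox8c drew 1 read each against 21904 for Cox8a. Cox7b2 drew 6 reads, beside 13131 for Cox7b. Cox4i2, which replaces Cox4i1 under low oxygen in some tissues, made up 0.279% to 1.30% of the summed FPKM of both genes. It stood at 1.70, 2.20 and 1.53 FPKM in the control libraries and 0.610, 2.39 and 1.42 FPKM in the Setd5sh libraries. The low library, Setd5sh replicate 1, rests on 10 reads.

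Cox6b2 was the most abundant of the minor forms (ENSMUSG00000051811, chromosome 7, 4751792 to 4753094, minus strand of mm10). It stood at 17.2, 26.4 and 10.7 FPKM in control replicates 1 to 3 and 11.2, 21.1 and 5.10 FPKM in Setd5sh replicates 1 to 3. In each group replicate 2 was highest and replicate 3 lowest, and Setd5sh was below control within each same-numbered pair. The log2 fold change was -0.54 (SE 0.50; edgeR adjusted p = 0.995), which became -0.21 when control replicate 2 was left out. Dropping Setd5sh replicate 3 gave -0.17, and dropping Setd5sh replicate 2 gave -1.11. As a share of Cox6b1 plus Cox6b2 it made up 10.4%, 11.0% and 5.05% in control and 4.97%, 8.50% and 3.13% in Setd5sh (exact two-sided permutation test, p = 0.2, or 0.982 adjusted over the 18 paralog shares computed). Cox6b2 was the only one of the 81 genes with an unadjusted edgeR p under 0.05 once the replicate number was a block (0.0211), where 328 of 12199 genes (2.69%) had one, and it did not pass after adjustment.

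Cox7a1 and Ndufa4l2 were likewise highest in replicate 2 of each group. Cox7a1 stood at 2.04, 6.40 and 1.69 FPKM in the control libraries and 1.35, 4.46 and 1.05 FPKM in the Setd5sh libraries, against 78.8 to 113 FPKM for Cox7a2. Its log2 fold change was -0.54 (SE 0.69), with 0.26 when control replicate 2 was left out and -1.45 without Setd5sh replicate 2. Ndufa4l2, a paralog known as a hypoxia-induced gene (chromosome 10, 127514967 to 127517154, plus strand of mm10), stood at 2.25, 7.20 and 4.78 FPKM in control replicates 1 to 3 and 2.64, 5.91 and 1.86 FPKM in Setd5sh replicates 1 to 3. Its exons overlap those of Shmt2 on the opposite strand, at 91.6 FPKM, so its reads are uncertain. Both genes and Cox6b2 were highest in the libraries numbered 2, where the pluripotency marker Dppa5a also stood highest, with 15.2, 69.4 and 24.1 FPKM in control and 25.6, 52.3 and 7.98 FPKM in Setd5sh. The part of remaining stem cells in these values was not tested.

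**Figure D5:**
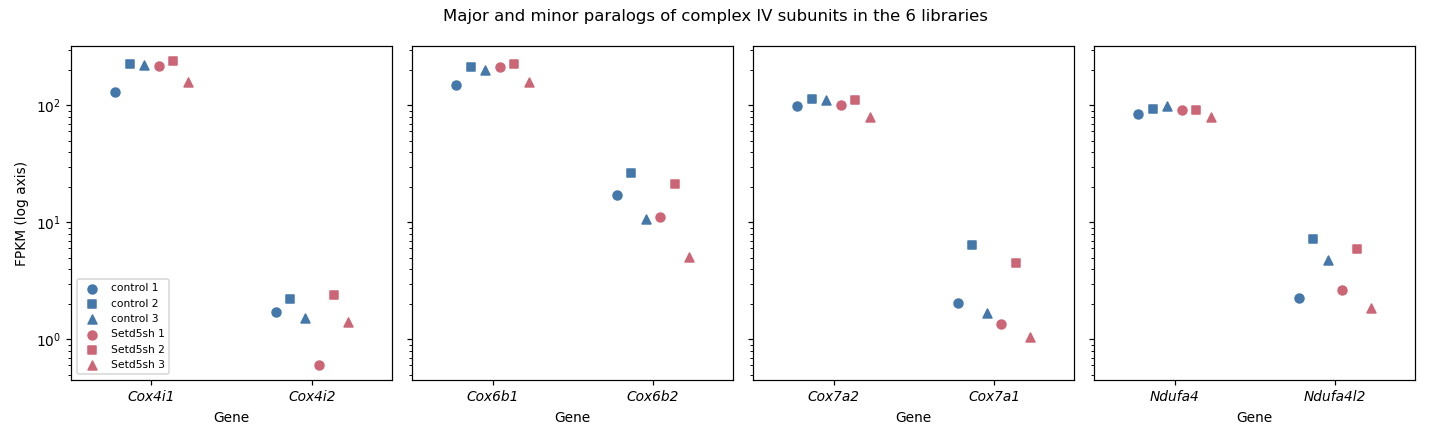
FPKM (log axis) of the major and the minor gene of 4 paralog pairs of complex IV in the 6 libraries, blue for control and red for Setd5sh, with circles, squares and triangles for replicates 1, 2 and 3. The minor genes Cox4i2, Cox6b2, Cox7a1 and Ndufa4l2 lie below their partners in every library, and their squares, replicate 2, are the highest of each group.

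In complex V, 3 genes encode the same mature c-ring protein with different import signals. Atp5g2 held 43.6% to 49.8% of their summed FPKM, Atp5g3 40.3% to 48.7% and Atp5g1 6.39% to 9.88%. The group means differed by less than their SDs, with 46.3% ± 2.30 and 46.2% ± 3.25 for Atp5g2, 46.1% ± 3.31 and 45.6% ± 4.60 for Atp5g3, and 7.55% ± 1.31 and 8.23% ± 1.57 for Atp5g1 (SD, n = 3 each; exact permutation p from 0.6 to 1.0). Atp5g1 stood at 16.8, 22.5 and 28.2 FPKM in the control libraries and 28.1, 25.0 and 23.0 FPKM in the Setd5sh libraries.

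Of the 81 subunit genes, 10 were lower in Setd5sh within all 3 same-numbered pairs and 0 were higher in all 3. Among the 12199 genes tested, 1548 were lower in all 3 pairs (12.7%) and 1546 were higher (12.7%). The share of subunit genes that were lower is thus near the background and is no result about them, and since the subunits vary together between libraries, neither count is one of independent genes. The 10 were Ndufa1, Ndufa6, Ndufs4, Cox6b2, Cox6c, Cox7a1, Cox7a2, Atp5j, Atp5mpl and Atp5s. Several of these differences were close to 0, such as -0.00 for Cox7a2 in pair 1. In a fit of the libraries numbered 2 and 3 with the replicate block, added after the data were seen, 9 subunit genes had an unadjusted p under 0.05, all lower in Setd5sh, beside 662 genes in all (5.43%), of which 411 were lower (3.37%). They were Ndufa3, Ndufa13, Ndufb4, Ndufc1, Ndufs6, Cox6b2, Cox6c, Ndufa4l2 and Atp5e. None passed after adjustment in edgeR, beside 70 of all genes (0.574%). This fit leaves 1 residual degree of freedom.

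Other genes of the pathway also gave 0 calls in edgeR. The assembly factors, which build the complexes without staying in them, had median log2 fold changes of -0.06 for complex I (15 tested), -0.12 for complex II (4), 0.01 for complex III (5), -0.00 for complex IV (20) and 0.01 for complex V (4). Among 15 genes for ubiquinone and electron transfer, 6 were higher and 9 lower. Coq4, required for ubiquinone synthesis, stood at 4.89, 6.09 and 7.18 FPKM in control replicates 1 to 3 and 9.18, 7.39 and 9.09 FPKM in Setd5sh replicates 1 to 3 (log2 fold change 0.50, SE 0.20, edgeR adjusted p = 0.995). Etfa was lower, at 37.0, 33.5 and 31.9 FPKM in control and 26.6, 28.9 and 26.6 FPKM in Setd5sh (log2 fold change -0.33, SE 0.14). Etfdh was also lower, at 4.80, 4.57 and 3.81 FPKM against 3.51, 3.75 and 3.13 FPKM (log2 fold change -0.35, SE 0.17). The groups did not overlap for Coq4, Etfa or Etfdh, as for 636 of all 12199 genes (5.21%). Of 18 tricarboxylic acid cycle genes 11 were higher and 7 lower, with a median of 0.05. The 16 regulators of mitochondrial biogenesis had a median of -0.04, with 7 higher and 9 lower. Hcfc1 stood at 51.0, 53.3 and 59.9 FPKM in control and 72.5, 58.5 and 67.5 FPKM in Setd5sh. Pprc1 stood at 23.4, 27.9 and 30.4 FPKM against 33.2, 30.8 and 31.3 FPKM, without overlap. Gabpa, lower in Setd5sh, stood at 19.8, 11.1 and 9.28 FPKM in control and 9.81, 10.0 and 12.4 FPKM in Setd5sh, with the high value in control replicate 1.

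Lists outside the chain are given beside it, and no difference between lists was tested. These lists were chosen with earlier results of these data known, so their counts beside all genes are description only and no independent evidence. Of 21 glycolysis genes 19 were lower in Setd5sh (median -0.24), where 7002 of all 12199 genes were lower and 5197 higher. The median deviation of the glycolysis genes was lowest in Setd5sh replicate 3, at -0.50. Of 13 mitochondrial stress genes 12 were higher (median 0.19), and 4 had an unadjusted p under 0.05, all higher, beside 75 such genes in all (0.615%). Atf5, a transcription factor of the mitochondrial stress response, stood at 29.8, 23.4 and 29.6 FPKM in the control libraries and 68.3, 31.0 and 65.1 FPKM in the Setd5sh libraries, so that replicate 2 lay near the controls. The 78 mitochondrial ribosomal protein genes had a median deviation of -0.25 in control replicate 1 and 0.04 in Setd5sh replicate 3, whereas 79 cytosolic ribosomal protein genes stood at -0.20 and -0.21, as the subunits of the chain did.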

How the data were processed

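The authors deposited a table of 55400 genes that gives raw counts and FPKM for each library, beside the exonic length of the gene. Per the submitters' processing notes, the tools were HTSeq, HISAT2, SAMtools and DESeq2 on the mm10 build, and roles, versions, annotation and strand use are not stated. The deposited FPKM can be recomputed from count, exonic length and column total to within 0.005. GENCODE M21 gave symbols, positions and GC content (99.5% of identifiers matched).

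The counts of genes with a mean of at least 1 FPKM (12199) were tested with edgeR 4.0.16 (quasi-likelihood, TMM scaling, 3 control against 3 Setd5sh, Benjamini-Hochberg over all genes, threshold 0.05, two-sided), under R 4.3.3. DESeq2 1.42.0, limma 3.58.1 on log2(FPKM + 1) and log2(FPKM + 0.1), other scalings and filters, length and GC trends and left-out libraries were alternatives. Scripts were tested on simulated data. Depth was 19639303 to 32046466 counts.

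The members and gene lists were chosen with earlier results of these data known. Named genes are catalytic subunits, the highest and lowest gene and those with the smallest p per complex and direction, paralog families and the 5 genes with the widest range. The lists for cofactor genes, biogenesis and other pathways were described by counts and medians, with up to 2 members per direction named by smallest p. Genes named as lower in all pairs or under the fit without the libraries numbered 1 were chosen after their values were seen. Single-gene values of 1 member that this rule names are not reported here. Identity between paralog proteins was planned and is not reported here, since no protein table was used.

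Deviations of same-numbered libraries from their group means correlated across genes at 0.185, 0.69 and 0.127, each over 0.1. On the basis of the data, same-numbered libraries were therefore treated as pairs for pair differences and the replicate block, but not in the main fit. The labels do not state such pairs. Control replicate 1 correlated at 0.191 with Setd5sh replicate 3. No pair of libraries was alike within sampling noise (chi-square per degree of freedom of at least 8.49). By this measure control replicate 1 lay nearer to Setd5sh replicate 3 (139.4) than to Setd5sh replicate 1 (163.99). Control replicate 3 lay nearer to Setd5sh replicate 2 (21.07) than to Setd5sh replicate 3 (33.63). The pairs numbered 1 and 3 are thus uncertain.

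Exons of 20 member symbols overlap expressed exons of other genes, and 13 pseudogenes or non-coding copies share the prefixes, 5 of them at 1 FPKM or more, which can split reads.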

Additional observations from a re-analysis of the deposited data

How the results depend on the processing

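The count of subunit genes called between Setd5sh and control was 0 under all 18 alternatives, and 0 of 824 values for the 46 named genes passed the threshold. Over all genes the count was 0 except for 73 of 29462 without a filter on low values and 70 with the replicate block without the libraries numbered 1, an alternative added after the data were seen; the first tests more genes, and the cause of the second was not tested. The fit with the replicate block on all 6 libraries gave 0 calls over all genes and 0 among the subunits, and changed no other call.

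The median log2 fold change of the 81 genes ranged from -0.17 to 0.09. Leaving out control replicate 1 gave -0.09, leaving out Setd5sh replicate 3 gave 0.09, which are the ends of the range over single libraries left out, and leaving out both gave -0.02. Complex IV stayed negative under all alternatives run (-0.21 to -0.02), and complexes I, II, III and V took both signs. The median over all genes was itself often negative. Complex IV lay below it in the main fit (-0.10 against -0.04) and above it without a filter on low values (-0.036 against -0.105). Without the 4 minor paralogs complex IV stood at -0.04 in the main fit, so its sign is no result about the complex. The Setd5sh share of summed FPKM lay between 95.2% and 106.9% of control. At 3 libraries per group, edgeR recovered 37% of simulated 2-fold changes, which limits what these counts can show.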
